A study of Mus musculus
Rattus norvegicus and Mus musculus and Rattus norvegicus with 95 samples.

Results

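The collagen genes measured in this series were chosen by symbol, as every gene named Col, a number, the letter a and a number in both the bulk and the single-cell tables. This gave 24 of 13926 genes. By chain type 10 were fibrillar, 2 belonged to the basement membrane network and 12 were other collagens. GENCODE vM21 lists 44 collagen symbols in the mouse, and 20 of them, among them Col4a2, Col6a1, Col6a3 and Col12a1, were not analysed here. The study profiled mouse-rat allodiploid embryonic stem cells (AdESCs), whose labels give both species as the source of the RNA, beside stem cells of either species and differentiated derivatives. The 8 bulk libraries each came from 1 line of G0/G1 stem cells: F145 and F146 (mouse ESC), DA25 and DA53 (rat ESC), and MR1-1, MR2-1, RM1-1 and RM2-1 (AdESC). The 87 single cells fell into 11 samples, each the cells of 1 type from 1 AdESC line. They were AdESCs of all 4 lines (24 cells), embryoid bodies (EBs) of MR2-1 and RM1-1, somatic testis cells of RM1-1 from a mouse chimaera and of RM2-1 from a rat chimaera, fibroblasts of MR1-1 and neurons of RM1-1 from mouse chimaeras, and lung cells of RM2-1 from a rat chimaera. The labels give no genotype beyond the line, no strain, no treatment and no animal age. The labels do not say how AdESC-derived cells were parted from the chimaera's own cells, and they name no feeder cells for the stem cell cultures. No label says that libraries came from separate cultures or animals, so the spread behind each p-value is that of these samples and may be technical.

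Collagens are trimers of alpha chains wound into a triple helix, which requires a glycine in each triplet of residues. Fibrillar collagens have a long unbroken helix and assemble into the fibres of connective tissue, where fibroblasts, smooth muscle and other stromal cells secrete types I, III and V. Type IV collagen has an interrupted helix and forms the network of basement membranes, and in the early embryo the primitive and parietal endoderm are known sources of it. Embryonic stem cells are commonly grown on a layer of fibroblasts, which make types I, III and V.

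The coding sequences show the difference between the classes, and the stretches below were chosen because they hold the start of the longest run of glycine triplets in 2 fibrillar genes and the end of that run in a basement membrane gene. They come from GENCODE vM21 transcripts of GRCm38 (mm10), 5′ to 3′ on the coding strand, 90 bases each. Capitals mark the glycine codon that opens each triplet within a run of at least 3 triplets.
Col1a1 codons 168 to 197: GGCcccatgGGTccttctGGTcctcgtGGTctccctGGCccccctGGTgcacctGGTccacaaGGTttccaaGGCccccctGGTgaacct
Col3a1 codons 164 to 193: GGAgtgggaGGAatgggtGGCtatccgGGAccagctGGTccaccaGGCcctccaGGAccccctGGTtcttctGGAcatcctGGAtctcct
Col4a1 codons 148 to 177: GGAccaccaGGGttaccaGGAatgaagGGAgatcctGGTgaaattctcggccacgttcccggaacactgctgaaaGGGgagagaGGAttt
In Col1a1 and Col3a1 the glycine codons continue without a break for 338 and 344 triplets. In Col4a1 the run stops inside the printed stretch, and its longest of 23 runs is 40 triplets. Over all members the longest run was 217 to 344 triplets in the fibrillar genes, 39 to 40 in the basement membrane genes and 30 to 113 in the others. Exons of exactly 54 bases, a length typical of fibrillar collagen genes, made up 42.86% to 55.93% of internal coding exons in the fibrillar genes, 4% in Col4a1 and Col4a3, and 2.632% to 46.67% in the others with internal coding exons.

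The members lie on many chromosomes. Col1a1 is at chr11:94936224-94953042 on the plus strand and Col1a2 at chr6:4504814-4541544 on the plus strand. Col3a1 (chr1:45311538-45349706, plus strand) and Col5a2 (chr1:45374321-45503282, minus strand) are neighbours that meet tail to tail, 24614 bases apart. Col4a1 (chr8:11198423-11312826, minus strand) starts head to head with Col4a2, whose annotated start overlaps its own by 22 bases. Col18a1 is at chr10:77052178-77166548 on the minus strand. All values below are FPKM, fragments scaled to transcript length and to the mapped total, so levels can be set side by side between genes within a table. In AdESC cells a gene has 1 value for both species, and how the mouse and rat fragments were combined is not stated.

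Read depth is unknown because only FPKM were used. Genes at 1 FPKM or more numbered 7835 to 8770 in the bulk libraries and 3444 to 6246 per cell. The pluripotency list (7 measured genes) was at 1 FPKM or more in full in all 8 bulk libraries and all 4 single-cell AdESC samples. In 3 differentiated samples the defining markers went against the label or beyond it. In the lung sample 7 of 8 lung epithelium genes were listed at 0 and none reached 1 FPKM, while Cyp11a1, a steroidogenic enzyme, was at 1028 FPKM and Tagln, a smooth muscle gene, at 2390 FPKM. The 4 testis cells of RM1-1 had 8 of 11 neuron genes at 1 FPKM or more. Their smooth muscle sum was 73.4 FPKM, against 5585 FPKM in the 20 testis cells of RM2-1. Of 7 Sertoli genes, 2 reached 1 FPKM in testis of RM1-1 and 3 in testis of RM2-1, with Amh listed at 0 in both. Clu led that list at 287 and 328 FPKM, and was 111 to 2617 FPKM in the other differentiated samples. The fibroblast sample had 13 of 17 fibroblast genes other than collagens at 1 FPKM or more, against 5 to 15 in the other differentiated samples. Beyond its label it carried the epithelial genes Epcam at 82.7 FPKM and Cdh1 at 41.4 FPKM. It also had 7 of 10 genes of the extraembryonic endoderm list at 1 FPKM or more. These samples are therefore called by their label and line, and their counts are given with and without the testis sample of RM1-1 and the lung sample of RM2-1.

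The bulk comparisons ask which collagens differ between the hybrid cells and the stem cells of each parent species. Types I and III led in the mouse lines, were near or at 0 in the rat lines and lay in between in the AdESC lines, with a wide gap between the mouse lines themselves. Col1a1 encodes the alpha 1 chain of type I collagen and had 641 FPKM in F145, 89.7 FPKM in F146, 0.0720 FPKM in DA25 and 0.0440 FPKM in DA53. Its AdESC values were 8.69 FPKM (MR1-1), 55.1 FPKM (MR2-1), 54.5 FPKM (RM1-1) and 84.3 FPKM (RM2-1). Every AdESC line lay between the rat lines and F146, with MR1-1 the lowest of the 4. Col1a2, the partner chain of type I, had 512 FPKM in F145, 57.4 FPKM in F146, 0 in both rat lines, and 8.08, 32.2, 42.96 and 51.1 FPKM in the AdESC lines as ordered above. The chains of type I thus ranked the groups alike. Col3a1, the single chain of type III collagen, was 458 FPKM in F145 and 43.1 FPKM in F146, 0 in both rat lines, and 4.72, 23.9, 18.2 and 21.2 FPKM in the AdESC lines in that order. In bulk libraries fewer cells of a type and less RNA per cell cannot be told apart.

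Type V collagen, which joins type I fibres and sets their width, split by chain. Col5a2 followed the type I genes, with 112 FPKM in F145, 14.3 FPKM in F146, 0 and 0.0108 FPKM in the rat lines, and 2.61 to 12.3 FPKM in the AdESC lines. Col5a1 did not separate the rat from the AdESC lines: it was 100.5 FPKM in F145 and 11.6 FPKM in F146, 7.66 and 8.02 FPKM in DA25 and DA53, and 3.86 (MR1-1), 9.16 (MR2-1), 9.52 (RM1-1) and 9.44 FPKM (RM2-1) in the AdESC lines. The rat values of Col5a1 lay inside the AdESC range. Col5a3 was 22.6 FPKM in F145, 2.91 FPKM in F146, 1.39 and 0.647 FPKM in the rat lines and 1.31 to 2.66 FPKM in the AdESC lines. The other 4 fibrillar members (Col2a1, Col11a1, Col11a2 and Col27a1) stayed at or under 2.85 FPKM in every bulk library. Summed over the 10 fibrillar genes, the level was 1852 FPKM in F145, 222 FPKM in F146, 9.72 and 9.20 FPKM in DA25 and DA53, and 32.2 (MR1-1), 132 (MR2-1), 141 (RM1-1) and 180 FPKM (RM2-1) in the AdESC lines. Fibrillar genes made up 92.4% and 83.4% of collagen FPKM in the mouse lines, 29.2% and 25.6% in the rat lines, and 35.5% to 73.3% in the AdESC lines.

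**Figure D1:**
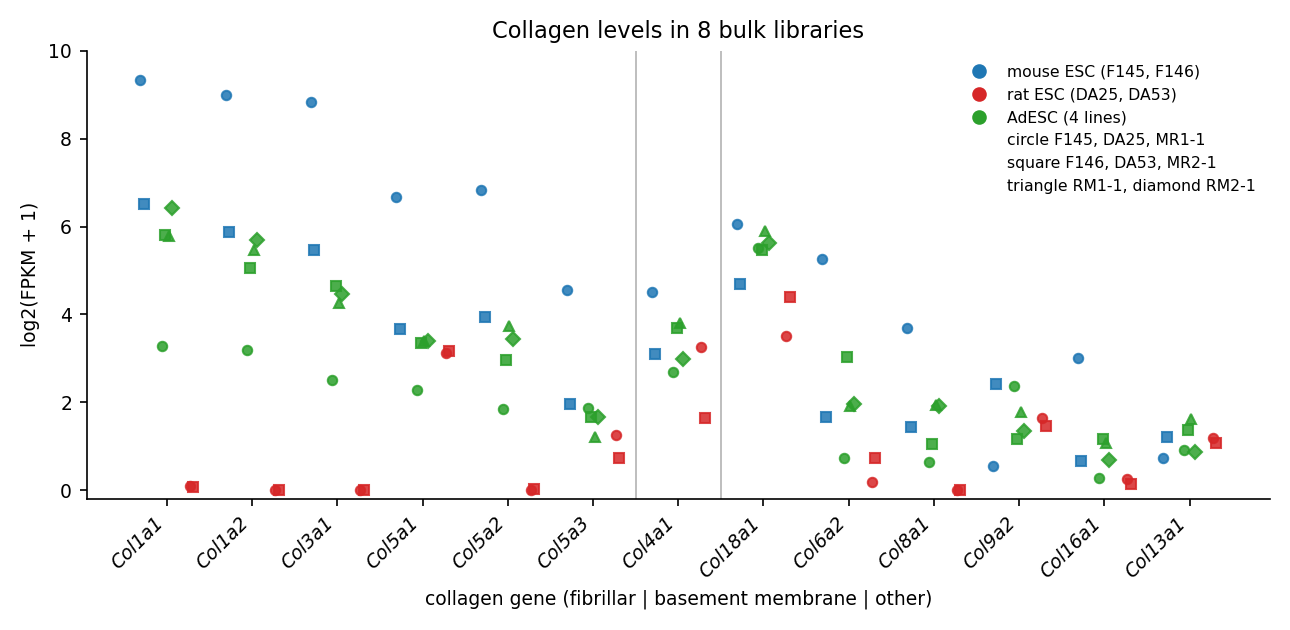
Level of 13 collagens in 8 bulk libraries, log2(FPKM + 1) on the y axis and genes on the x axis by class; each point is 1 line, coloured by group. Col1a1, Col1a2, Col3a1 and Col5a2 lie at or near 0 in both rat lines and highest in F145, whereas Col18a1 in the 4 AdESC lines (43.1 to 58.2 FPKM) lies between the mouse lines.

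Among basement membrane and other collagens Col18a1 led in every bulk library, and Col4a1 and Col18a1 were present in all 8. Col4a1, a chain of the type IV network, was 21.9 and 7.57 FPKM in the mouse lines, 8.50 and 2.14 FPKM in the rat lines and 5.41 to 12.9 FPKM in the AdESC lines, so that all 3 groups overlapped. Col4a3 did not exceed 0.0429 FPKM. Col18a1, a basement membrane proteoglycan whose end fragment is endostatin, was the leading collagen outside the fibrillar class in all 8 libraries: 65.5 and 24.7 FPKM in F145 and F146, 10.4 and 20.0 FPKM in DA25 and DA53, and 44.6 (MR1-1), 43.1 (MR2-1), 58.2 (RM1-1) and 48.4 FPKM (RM2-1) in the AdESC lines, a mean of 48.6 ± 6.82 (SD, n = 4). The AdESC lines all lay above both rat lines and inside the mouse range. Col6a2, a beaded filament chain, ranged from 37.3 FPKM in F145 to 2.19 FPKM in F146, 0.133 and 0.668 FPKM in the rat lines and 0.655 to 7.20 FPKM in the AdESC lines. Col8a1, a short-chain network collagen, was 11.9 and 1.69 FPKM in the mouse lines, listed at 0 in both rat lines, and 0.555 to 2.81 FPKM in the AdESC lines. Col16a1 was 7.01 FPKM in F145 and 0.0995 to 1.25 FPKM in the other libraries. Col9a2, a cartilage collagen chain, ran the other way in the mouse lines, 0.470 FPKM in F145 and 4.32 FPKM in F146, with 1.24 to 4.14 FPKM in the AdESC lines, and its partner chain Col9a1 did not exceed 0.0442 FPKM. Of the 24 members 3 reached 1 FPKM in every bulk library (Col4a1, Col5a1 and Col18a1) and 5 in none.

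Against rat ESCs, 5 collagens were higher in AdESCs by limma with Benjamini-Hochberg adjustment over all genes, among the 13 members that passed the filter of a mean of 1 FPKM. In that comparison 9.7% of all 8794 tested genes were called, 5.79% as higher and 3.91% as lower. The differences, on the log2(FPKM + 1) scale with SE, were 5.24 ± 0.88 for Col1a1 (adjusted p = 0.00496), 4.85 ± 0.84 for Col1a2 (adjusted p = 0.00587), 3.97 ± 0.83 for Col3a1 (adjusted p = 0.0155), 2.99 ± 0.73 for Col5a2 (adjusted p = 0.0294) and 1.67 ± 0.39 for Col18a1 (adjusted p = 0.0248). Col1a2 and Col3a1 were listed at 0 in the rat lines, so these values depend on the pseudocount of 1 and no fold is given. The filter used the mean of all 8 libraries, so a gene low in rat could pass through the mouse and AdESC libraries. Passing the filter and being called are therefore not independent here, nor in the other bulk comparisons and gene lists. Without a filter 2 of 24 members were called higher (Col1a1 and Col1a2), where 385 of 13123 genes were higher and 307 lower. A 0 in rat may also be a missing gene model, which the tables do not show. Col5a1 differed by -0.04 ± 0.68 (adjusted p = 0.978). The median over the 13 members was 1.38, against -0.11 over all tested genes. Without DA25 or without DA53, which leaves 1 rat library, far fewer genes of any kind were called and no collagen was among them. Without RM1-1 3 collagens were called (Col1a1, Col1a2 and Col3a1), where 384 of 8824 tested genes were higher and 217 lower.

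Rat ESCs against mouse ESCs gave 7 lower collagens and 0 higher, with 26.6% of tested genes called, 12.6% as lower and 14.1% as higher, and a median of -2.27 over the members against 0.08 over all genes. They were Col1a1 (-7.83 ± 1.02, adjusted p = 0.000518), Col1a2 (-7.44 ± 0.97), Col3a1 (-7.15 ± 0.96), Col5a2 (-5.37 ± 0.84), Col5a3 (-2.27 ± 0.68), Col8a1 (-2.56 ± 0.69) and Col18a1 (-1.42 ± 0.45, adjusted p = 0.0409). Without F145, without DA25 or without DA53 the count was 4, namely Col1a1, Col1a2, Col3a1 and Col5a2. Against mouse ESCs, 0 of 13 collagens were called in AdESCs by limma, while 6 had an unadjusted p under 0.05 and 3.89% of all tested genes were called, 2.71% as higher and 1.18% as lower. Col3a1 differed by -3.18 ± 0.83 (adjusted p = 0.066), Col1a1 by -2.59 ± 0.88 (adjusted p = 0.141) and Col18a1 by 0.25 ± 0.39 (adjusted p = 0.773), with a median of -1.56 over the members and -0.01 over all genes. The count depended on which mouse line was kept: without F146 7 collagens were called lower (Col1a2, Col3a1, Col5a1, Col5a2, Col5a3, Col6a2 and Col16a1), and without F145 none was. Over all genes, more were called lower in AdESCs without F146 than in the main fit, and fewer without F145. In rat against mouse ESCs the fits without F145, DA25 or DA53 each called fewer genes of any kind. These shifts are thus not particular to collagens. A fit without 1 mouse or rat line leaves 1 library in that group, which is assumed to vary like the other groups. The 3 comparisons share their groups, so their counts are not independent.

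The spread between the mouse lines was seen in many members. F145 was the highest of the 8 libraries for 17 of 24 members. Of the 16 members at 1 FPKM or more in F145, 16 were higher there than in F146 and 15 were higher there than in all 4 AdESC lines. Among members under 1 FPKM in F145, Col9a2, Col13a1, Col17a1 and Col23a1 were higher in F146. Col4a3, Col9a1, Col11a2 and Col15a1 were higher in F145. The share of all genes with such an order was not computed. Choosing the 16 by their level in F145 favours F145 in these counts and in the percentages below. As a percentage of F145, the median over these 16 collagens was 13.9% in F146, 4.25% in MR1-1, 12.6% in MR2-1, 13.3% in RM1-1, 11.6% in RM2-1, 1.01% in DA25 and 1.61% in DA53. Fibroblast genes that are not collagens had medians near these in F146 and the AdESC lines and lower ones in the rat lines. Over the 15 of 17 that reached 1 FPKM in F145, the median was 13.7% in F146, 3.86% in MR1-1, 10.8% in MR2-1, 16.7% in RM1-1, 8.90% in RM2-1, and 0.0555% and 0.0798% in the rat lines. The highest medians over the AdESC lines were 70.96% for Col18a1 (65.8% to 88.9%), 67.95% for Col2a1, which was at 1.13 FPKM in F145, and 67.3% for Fn1, the fibronectin gene (57.5% to 72.99%). MR1-1 was the lowest AdESC line for most collagens.

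The summed level of all 17 fibroblast genes was 1905 FPKM in F145 and 376 FPKM in F146, 328 and 684 FPKM in the rat lines and 412 to 591 FPKM in the AdESC lines. The rat sums were almost all Fn1, at 324 FPKM in DA25 and 674 FPKM in DA53. At 1 FPKM or more were 15 genes in F145, 12 in F146, 9 to 13 in the AdESC lines and 3 and 2 in DA25 and DA53, where 7 and 8 were listed at 0, among them Thy1, Dcn and Lum. None was listed at 0 in a mouse or AdESC line. The part of fibroblasts in the collagen levels was not tested.

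**Figure D2:**
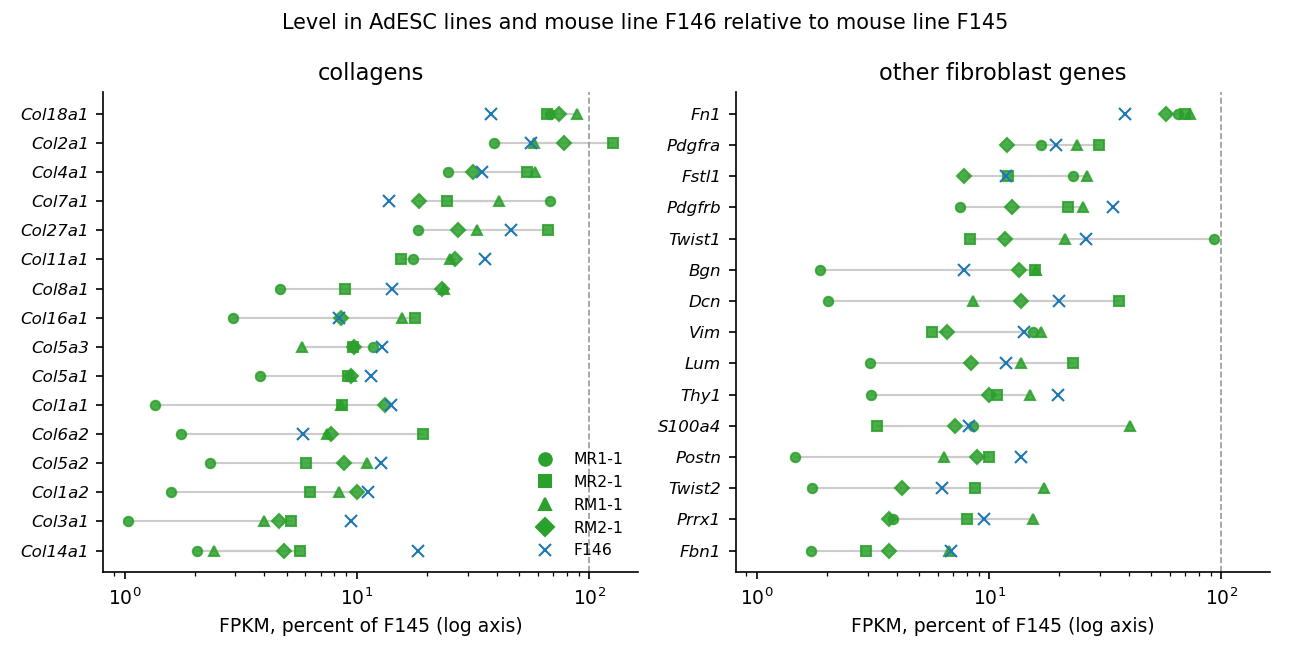
Level in 4 AdESC lines (green) and in mouse line F146 (cross) as a percentage of mouse line F145, on a log axis, for 16 collagens and 15 other fibroblast genes at 1 FPKM or more in F145. The median of F146 is 13.9% for collagens and 13.7% for the other genes, and Col18a1 and Fn1 lie far to the right.

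Single AdESC cells of the same 4 lines held almost none of the fibrillar transcripts seen in the bulk libraries. Col3a1 was listed at 0 in all 24 cells, although the bulk libraries of these lines held 4.72 to 23.9 FPKM. Col1a1 reached 1 FPKM in 3 of 24 cells, with sample means of 1.12 FPKM in MR1-1, 0.567 FPKM in MR2-1 and 0 in RM1-1 and RM2-1, against 8.69 to 84.3 FPKM in bulk. Col1a2 reached 1 FPKM in 1 cell and Col4a1 in 1 cell. In 8 of the 24 cells no collagen reached 1 FPKM, and the median was 1 member per cell. Col18a1 was the member found most often, in 12 of 24 cells, with means of 2.20 (MR1-1), 3.78 (MR2-1), 1.34 (RM1-1) and 4.09 FPKM (RM2-1), against 43.1 to 58.2 FPKM in bulk. Summed over all 24 members, the single-cell samples held 3.78 to 5.33 FPKM and the bulk libraries of these lines 90.9 to 246 FPKM.

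The tables were normalized separately, so these levels are set side by side without a test. By the rule of a log2(FPKM + 1) at least 2 higher in bulk in all 4 lines, 6 of 24 collagens qualified (Col1a1, Col1a2, Col3a1, Col4a1, Col5a1 and Col18a1), as did 2.46% of all genes. No collagen was lower in bulk by the same rule, against 0.388% of all genes. Among the 17 fibroblast genes Fn1, Postn and Bgn qualified. In the single-cell AdESC samples 2 to 4 of these 17 genes reached 1 FPKM, 10 to 14 were listed at 0, and their sum was 64.3 to 92.9 FPKM. The pluripotency list summed to 1198 to 1635 FPKM in the bulk AdESC libraries and to 866 to 1022 FPKM in the single-cell AdESC samples. These sums hide shifts of single genes in both directions. Pou5f1 was 660 to 807 FPKM in bulk and 62.9 to 85.2 FPKM in the single-cell samples. Nanog was 176 to 299 FPKM in bulk and 425 to 666 FPKM in the single-cell samples. Library method, depth and the cells each library held differ together between the tables and cannot be told apart.

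**Figure D3:**
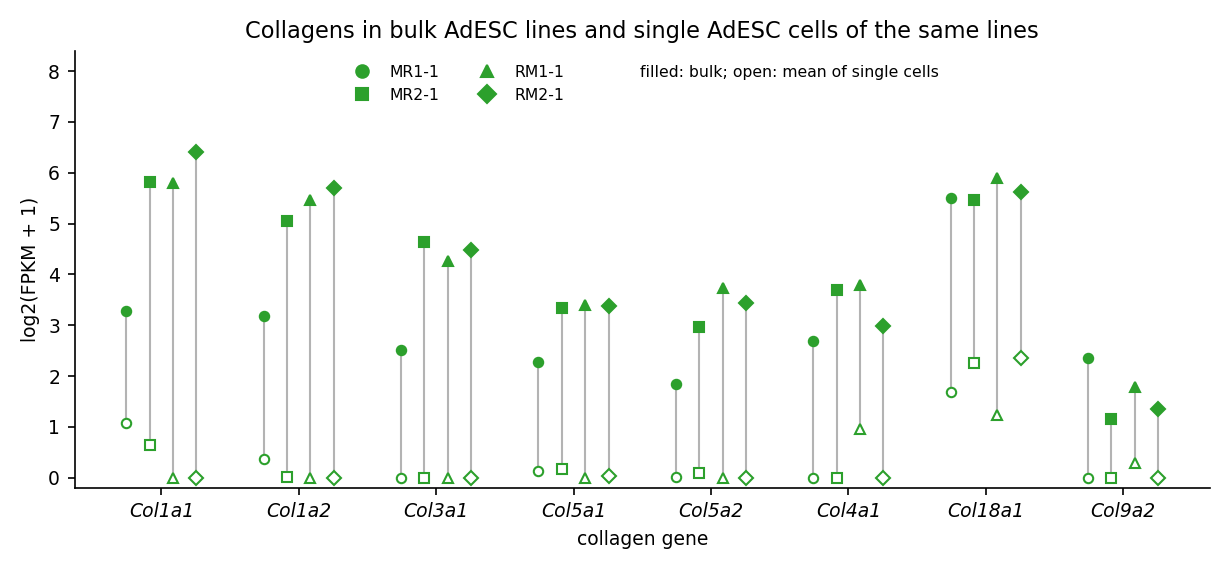
Bulk level (filled) and mean of single cells (open) of 8 collagens in each AdESC line, log2(FPKM + 1) on the y axis. Filled points lie above open points for all 8 genes in all 4 lines, and Col3a1 is at 0 in the single cells of every line.

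Every differentiated sample had a higher mean collagen sum in FPKM than every AdESC sample, with neurons the closest to them, and the class that led depended on the sample. Single cells overlapped, since the neurons ran from 0.487 to 43.4 FPKM and AdESC cells of MR2-1 reached 17.1 FPKM. The median number of members at 1 FPKM or more per cell was 10 in testis of RM2-1 and 9 in lung. It was 4 in fibroblasts, in EBs of RM1-1 and in testis of RM1-1, 2.5 in neurons and 2 in EBs of MR2-1. The counts that follow pool all 63 differentiated cells, of which 20 were testis cells of RM2-1, so they depend on how many cells each sample had. Col4a1 was the most widespread, in 56 of 63 cells, followed by Col5a2 in 38, Col3a1 and Col11a1 in 35 each, Col1a1 in 34, Col5a1 in 31, Col1a2 in 29, Col8a1 in 24 and Col18a1 in 21. All 3 of Col1a1, Col1a2 and Col3a1 were present in 27 cells, of which 20 were the testis cells of RM2-1, and Col4a1 without any of the 3 in 16 cells. Summed over members, the EB sample of MR2-1 held 507 FPKM, of which 81.9% was basement membrane collagen. The testis sample of RM2-1 held 448 FPKM and the lung sample of RM2-1 held 440 FPKM, with fibrillar shares of 80.9% and 75.9%. The fibroblast sample held 253 FPKM, split into 37.1% fibrillar, 46.04% basement membrane and 16.8% other. The EB sample of RM1-1 held 71.7 FPKM (65.6% fibrillar), the testis sample of RM1-1 held 40.2 FPKM (71.8% other) and the neurons 12.7 FPKM.

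**Figure D4:**
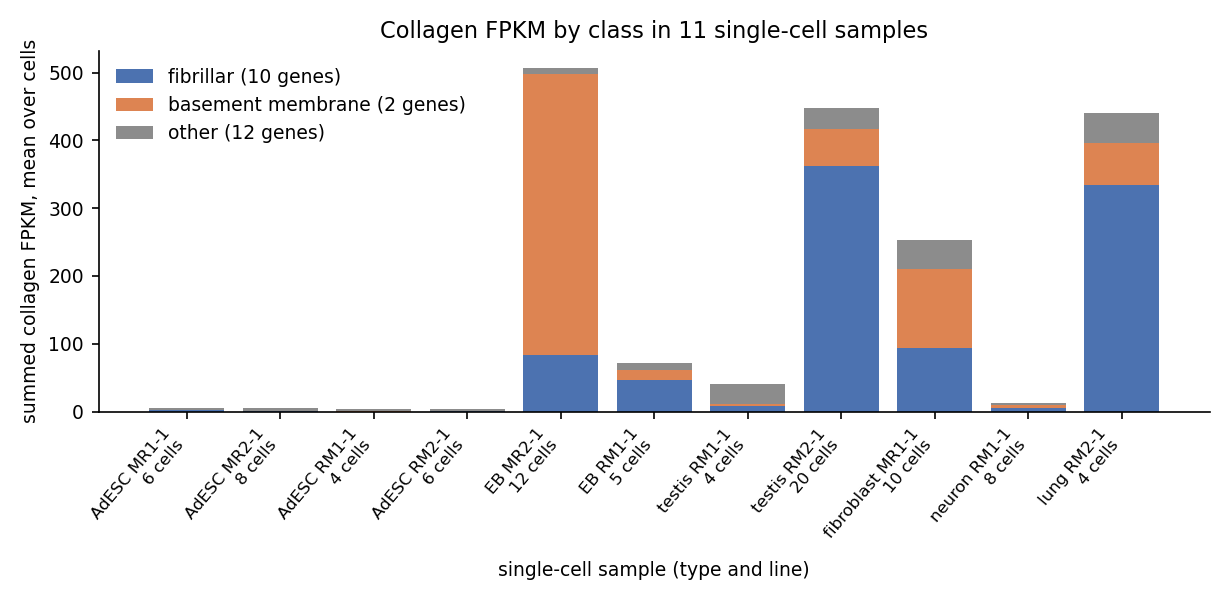
Summed collagen FPKM, mean over the cells of each of 11 single-cell samples, stacked by class on a linear axis from 0. AdESC samples hold 3.78 to 5.33 FPKM, the EB sample of MR2-1 is mostly basement membrane collagen, and the testis and lung samples of RM2-1 are mostly fibrillar.

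Type I collagen was highest in the testis cells of RM2-1, where Col1a1 ran from 60.3 to 289 FPKM with a median of 142 FPKM and no cell was without it. Its mean there was 154 ± 63.7 FPKM (SD over 20 cells), against 0.0108 FPKM in the 4 testis cells of RM1-1, none of which reached 1 FPKM. The lung sample had a mean of 93.6 FPKM from 3 of 4 cells, with a range of 0 to 325 FPKM. In the fibroblast sample 5 of 10 cells held Col1a1 (mean 16.7 FPKM), and in neurons none of 8 did. The cells of the RM2-1 and RM1-1 testis samples did not overlap in Col1a1, although both bear a testis label.

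Col1a2 had the same order at the top, with means of 100.4 FPKM in testis of RM2-1, 40.8 FPKM in lung, 34.4 and 3.29 FPKM in EBs of MR2-1 and RM1-1, 15.2 FPKM in fibroblasts, and 0.319 FPKM or less in neurons and testis of RM1-1. Col3a1 had another order, with 128 FPKM in lung (8.58 to 278 FPKM over 4 cells), 46.4 FPKM in fibroblasts, 39.4 FPKM in testis of RM2-1 (8.00 to 121 FPKM), 27.4 FPKM in EBs of RM1-1 and 4.25 FPKM in EBs of MR2-1. The ranges over cells of the lung, fibroblast and RM2-1 testis samples overlapped. Within the fibroblast sample the same cells carried the fibroblast proteoglycans: 4 of the 5 cells with Col3a1 held Lum, and none of the 5 without it did. Epcam was in 3 of the 5 cells with Col3a1 and in all 5 of the others.

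Type I collagen in the EBs of MR2-1 came from 1 cell. That cell held 470 FPKM of Col1a1, 412 FPKM of Col1a2 and 40.5 FPKM of Col3a1, while the highest Col1a1 among the other 11 was 9.97 FPKM. It made up 96.8% of the sample's Col1a1, whose mean of 40.5 FPKM was 1.43 FPKM without it. The same cell had the highest Vim (1549 FPKM), Bgn (723 FPKM) and Postn (510 FPKM) of the 12, the lowest Col4a1 (13.9 FPKM), and Gata4 listed at 0.

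**Figure D5:**
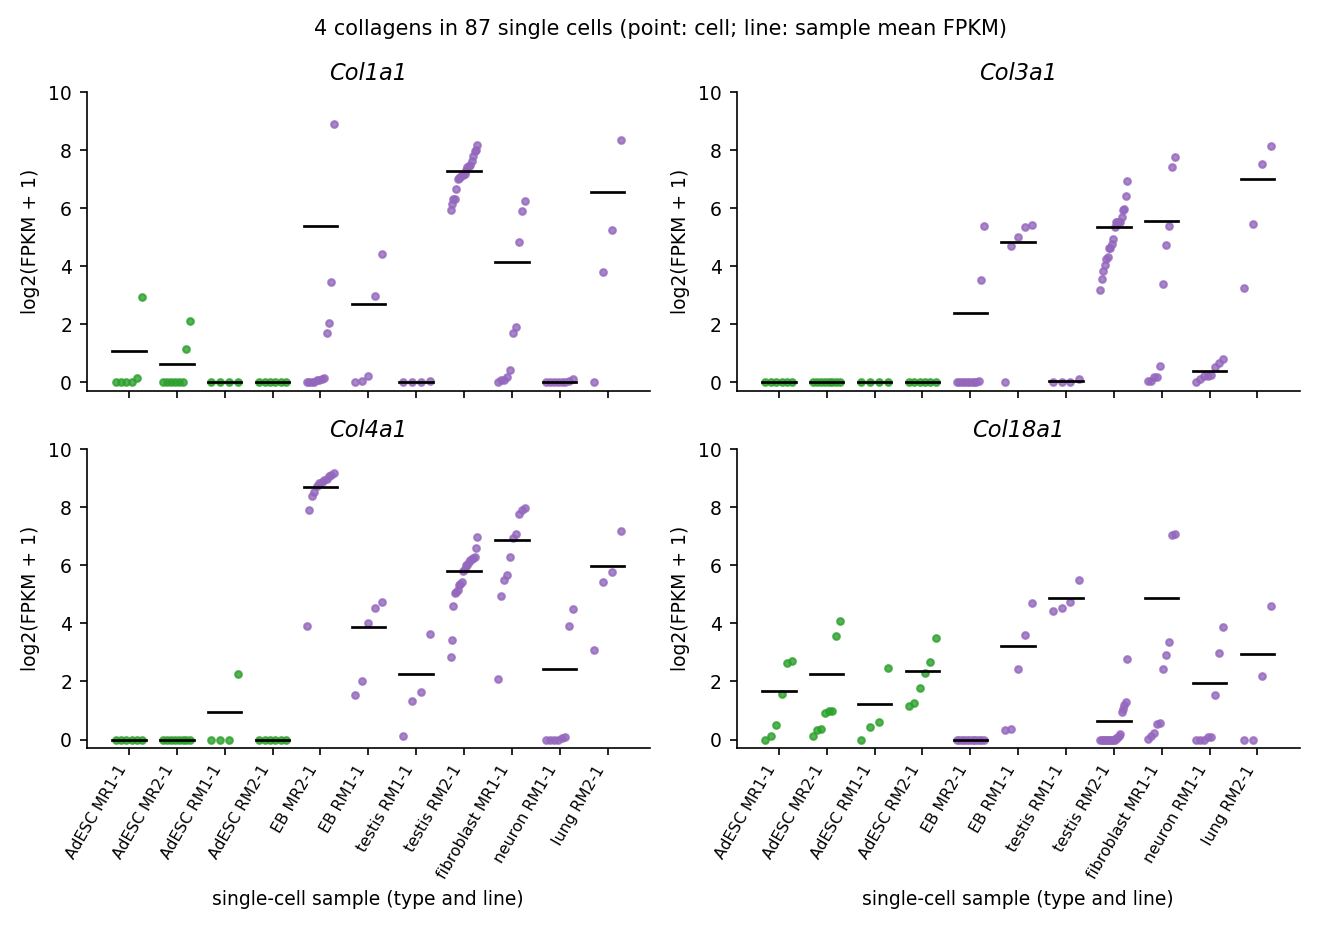
Col1a1, Col3a1, Col4a1 and Col18a1 in 87 single cells, log2(FPKM + 1) on the y axis and the 11 samples on the x axis; each point is a cell and each black line the mean FPKM of the sample, so that a mean can lie above nearly all cells. Col1a1 fills all 20 testis cells of RM2-1, Col4a1 fills all 12 EB cells of MR2-1, and Col18a1 is at 0 in the latter.

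Col4a1 was the collagen of the EB cells of MR2-1, at 415 FPKM on average, with 13.9 FPKM in the cell just described, a median of 465 FPKM and a highest value of 584 FPKM. Over those 12 cells the Pearson r of the log2 level of Col4a1 was 0.89 with Lama1, a laminin chain of the same membranes, and 0.68 with Sparc. These values describe the cells of 1 sample, which share their processing and differ in the number of genes detected. They include the cell just described, which had the lowest Col4a1 and the lowest Sparc of the 12. No r was computed without it, so how far they rest on that cell is unknown. The sample's extraembryonic endoderm genes were high, with Sparc at 3412 FPKM, Lama1 at 215 FPKM, Gata6 at 83.6 FPKM and Gata4 at 60.7 FPKM, 7 of 10 at 1 FPKM or more. In the EB sample of RM1-1 3 of these 10 reached 1 FPKM, and Col4a1 was 13.6 FPKM in 5 of 5 cells. Fibroblasts held 116 FPKM of Col4a1 in 10 of 10 cells (3.28 to 252 FPKM), lung 61.7 FPKM in 4 of 4 and testis of RM2-1 54.3 FPKM in 20 of 20. Testis of RM1-1 and neurons were low, at 3.81 and 4.45 FPKM. The summed list was 3788 FPKM in EBs of MR2-1, 239 FPKM in EBs of RM1-1, 1092 FPKM in fibroblasts, 603 and 1194 FPKM in testis of RM1-1 and RM2-1, 334 FPKM in neurons, 1225 FPKM in lung and 73.8 to 98.1 FPKM in AdESC samples. Most of each sum was Sparc, at 601 and 1181 FPKM in testis of RM1-1 and RM2-1, 333 FPKM in neurons and 1190 FPKM in lung. Of the 10 genes, 2 reached 1 FPKM in testis of RM1-1 and 2 in neurons, 3 in lung, 4 in testis of RM2-1 and 7 in fibroblasts. The part of such cells in the Col4a1 levels was not tested.

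Col18a1 followed another pattern over samples than the fibrillar genes. It was listed at 0 in all 12 EB cells of MR2-1 and reached 1 FPKM in 4 of 20 testis cells of RM2-1 (mean 0.544 FPKM), whereas all 4 testis cells of RM1-1 held it at 20.5 to 44.4 FPKM (mean 28.1 FPKM). Fibroblasts averaged 28.5 FPKM from 5 of 10 cells, with a highest value of 134 FPKM. EBs of RM1-1 had 8.24 FPKM and lung 6.62 FPKM, above the 1.34 to 4.09 FPKM of the AdESC samples, and neurons 2.83 FPKM, within it. Col8a1 was listed at 0 in every AdESC cell and averaged 34.3 FPKM in lung, 22.9 FPKM in testis of RM2-1 (15 of 20 cells) and 8.56 FPKM in fibroblasts. The highest sample mean of Col4a3 was 0.883 FPKM, in lung, where 1 cell had 3.53 FPKM. Col6a2 was highest in fibroblasts (4.497 FPKM) and testis of RM2-1 (3.56 FPKM). Col7a1, the anchoring fibril chain, did not exceed 1.17 FPKM in any sample mean, nor Col23a1, a transmembrane collagen, 1.83 FPKM. Col15a1, the closest relative of Col18a1, reached a mean of 1 FPKM in testis of RM2-1 (2.37 FPKM) and in no other single-cell sample. Counted over sample means, 15 members reached 1 FPKM in at least 1 differentiated sample, 2 in at least 1 AdESC sample and 9 in none.

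The chains of type I kept a narrower range of ratios over samples than those of type V. The ratio of Col1a1 to Col1a2 was 1.08 to 1.71 in the 6 bulk libraries with both genes and 1.54 in testis of RM2-1, where it ran from 0.896 to 2.84 over 20 cells with a median of 1.45. It was 1.10 in fibroblasts and 2.30 in lung, where 3 and 2 cells held both genes. Over the 20 testis cells the log2 levels of Col1a1 and Col1a2 had r = 0.76, against 0.31 for Col1a1 and Col3a1 and 0.39 for Col1a1 and Col4a1, as descriptions over the cells of 1 sample. The ratio of Col5a2 to Col5a1 was 0.675 to 1.297 in bulk mouse and AdESC libraries. It was 9.03 in testis of RM2-1, 5.93 in fibroblasts, 25.4 in lung, 3.18 in EBs of RM1-1 and 0.624 in EBs of MR2-1. In that order 19, 2, 3, 2 and 1 cells held both genes, and Col5a1 was at 5.54 FPKM or less in every single-cell sample. The ratio of Col3a1 to Col1a1 was 0.105 in EBs of MR2-1, 0.255 in testis of RM2-1, 1.37 in lung, 2.77 in fibroblasts and 4.97 in EBs of RM1-1, against 0.251 to 0.714 in bulk. The lung value rests on 3 cells with both genes, at 0.132, 0.234 and 21.8, whose median is near the 0.228 of the testis cells of RM2-1. In EBs of MR2-1 2 cells held both genes, at 0.0861 and 1.04, and in EBs of RM1-1 2 cells did. These ratios are between FPKM of different genes, and the bulk and single-cell tables were normalized separately.

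Set against the 4 AdESC samples, the 7 differentiated samples had 5 collagens higher and 0 lower among 10 that passed the filter (limma on sample means, adjusted over 8421 genes), where 15.9% of tested genes were called, 7.37% as higher and 8.57% as lower. The summed fibrillar level was 133 ± 151 FPKM (SD, n = 7) in these samples and 0.882 ± 1.13 FPKM (SD, n = 4) in the AdESC samples. Col4a1 rose by 4.89 ± 0.99 on the log2 scale (adjusted p = 0.00377), Col3a1 by 3.65 ± 1.13 (adjusted p = 0.0396), Col1a2 by 3.31 ± 1.08 (adjusted p = 0.0487), Col5a2 by 3.13 ± 0.87 (adjusted p = 0.0240) and Col11a1, a minor fibrillar chain that is partner to type II and V chains, by 1.84 ± 0.55 (adjusted p = 0.0337). Col11a1 was 0 to 0.911 FPKM in the AdESC samples and highest in testis of RM2-1 (11.8 FPKM) and lung (5.45 FPKM). Its partner chain Col11a2 did not exceed a sample mean of 0.134 FPKM. Col1a1 had a difference of 3.30 ± 1.22 (adjusted p = 0.0792) and Col18a1 one of 0.76 ± 0.85 (adjusted p = 0.562). The median over the 10 members was 2.72, against 0.02 over all genes. Since an FPKM of 1 in the mean could be reached through the differentiated samples alone, passing the filter and being higher are not independent here. Leaving out the 1 collagen-rich EB cell left 2 calls (Col4a1 and Col5a2). Leaving out the testis sample of RM1-1 and the lung sample of RM2-1 left 5, with Col1a1 in place of Col11a1. Leaving out the AdESC sample of MR1-1 left 2, and that of MR2-1, RM1-1 or RM2-1 left Col4a1 alone. Leaving out the testis sample of RM2-1 or the lung sample left 2, and the fibroblast sample 3. Col4a1 was called each time. Over all genes the main fit called 621 higher and 722 lower. Without 1 AdESC sample it was 355 to 381 higher and 436 to 451 lower. The calls were 471 and 584 without the testis sample of RM2-1, 600 and 700 without lung, and 634 and 693 without fibroblasts. The fewer collagen calls without an AdESC sample are thus not particular to collagens. The list of fibroblast genes other than collagens had 5 of 14 tested members higher in the differentiated samples. It had 5 to 15 of 17 genes at 1 FPKM or more and a sum of 486 to 3493 FPKM there. In the AdESC samples it had 2 to 4 genes and 64.3 to 92.9 FPKM, and its part in the result was not tested. Vim (165 to 3042 FPKM) and Fstl1 (138 to 1147.5 FPKM) led the list in every differentiated sample, and Fn1 led it in every AdESC sample.

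EB samples against AdESC samples gave 1 higher collagen, Col4a1 (6.05 ± 1.31, adjusted p = 0.0325 by limma), with 5.55% of tested genes called, 2.45% as higher and 3.1% as lower. The 2 EB samples differed widely, at 415 and 13.6 FPKM of Col4a1, and both lay above every AdESC sample. Without the EB sample of MR2-1, or without any 1 AdESC sample, no collagen was called. Without the testis sample of RM1-1 or of RM2-1, which share the estimate of the spread, 3 and 2 were. Testis samples against AdESC samples gave 2 higher collagens, Col5a2 (3.75 ± 0.97, adjusted p = 0.0395) and Col11a1 (2.52 ± 0.67, adjusted p = 0.0443), with 11.1% of tested genes called, 5.77% as higher and 5.37% as lower. Without the testis sample of RM1-1 7 were called higher, Col1a1, Col1a2 and Col3a1 among them, and without that of RM2-1 or any 1 AdESC sample none was. Leaving out any 1 AdESC sample also lowered the calls over all genes in the EB and testis comparisons. Leaving out the EB sample of MR2-1 lowered them in the EB comparison. Leaving out either testis sample lowered them in the testis comparison and raised them in the EB comparison. With the line as a block, pairing each derivative with AdESCs of its own line, 0 collagens were called for EBs and 0 for testis, and 7 for all differentiated samples. Over all 8421 genes that fit called 7 higher and 18 lower for EBs, 89 and 93 for testis, and 652 and 805 for all differentiated samples. The 0 for EBs and testis is thus not particular to collagens. Testis against EB samples gave 0 of 10 by limma, with 0 at an unadjusted p under 0.05 and 0.0713% of tested genes called (0.0238% as higher and 0.0475% as lower). Col4a1 differed by -2.26 ± 1.51 there (adjusted p = 0.678), which does not show that the types were alike. The EB and testis comparisons share the AdESC samples.

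Each derivative was also described alone, by the rule of a log2(FPKM + 1) at least 2 above the highest AdESC sample, which needs no replicate and gives no p-value. The testis sample of RM2-1 had 9 of 24 collagens past it (4.34% of all genes), the fibroblasts 8 (3.75%, and 2 with the median over their 10 cells in place of the mean), the lung cells 6 (4.98%), the EBs of MR2-1 5 (3.48%) and of RM1-1 3 (2.88%), the testis sample of RM1-1 1 (4.52%) and the neurons 0 (4.57%). The single gene in testis of RM1-1 was Col18a1. In EBs of MR2-1 the count without the 1 collagen-rich cell was 1, Col4a1, with 3.2% of all genes past the rule. Col4a1 was past it in both EBs, testis of RM2-1, fibroblasts and lung, and Col3a1 in these samples too, but in EBs of MR2-1 only with that cell.

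Genes that make and assemble collagen were followed in a list of 33, of which 29 were measured. Differentiated samples had 10 of 24 tested members higher (7.37% of all tested genes were) and 0 lower than AdESC samples, with a median of 2.102 against 0.02 over all genes. They included Serpinh1, the collagen chaperone (3.51 ± 0.71), P4ha1, a prolyl hydroxylase subunit (3.19 ± 0.54), Plod2 and Plod3, lysyl hydroxylases (3.55 ± 0.72 and 3.07 ± 0.59), Pcolce, the enhancer of procollagen cleavage (3.65 ± 1.15), Loxl1 (2.36 ± 0.64), and Sparc, a collagen binding protein (3.48 ± 0.53). Serpinh1 was 0.227 to 1.87 FPKM in the AdESC samples and 3.28 to 104 FPKM in the differentiated ones, lowest in neurons and highest in EBs of MR2-1, and the groups did not overlap. P4ha1 was 2.25 to 5.27 FPKM against 10.4 to 105 FPKM, also without overlap. Plod3, Ppib, Fkbp10, Bmp1, Loxl1 and Sparc were likewise higher in every differentiated sample than in every AdESC sample, and the other measured assembly genes were not. The share of all genes without overlap was not computed. P4ha2 (3.02 ± 1.20, adjusted p = 0.0987) and Lox (2.33 ± 1.08, adjusted p = 0.153) did not pass. Lox, which cross-links fibres, was listed at 0 in all AdESC samples and in the fibroblasts, and was 64.4 FPKM in testis of RM2-1 and 40.7 FPKM in lung. In EBs 8 of the 24 assembly genes were higher, against 2.45% of all tested genes, and in testis 9 of 24, against 5.77%, among them Lox in testis (4.52 ± 0.85). A gene at or near 0 in AdESCs, such as Lox, could pass the filter through the differentiated samples alone. Passing the filter and being higher are therefore not independent in these counts and medians, nor in the other single-cell comparisons and gene lists.

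In bulk, 2 of 22 tested assembly genes were lower in AdESCs than in mouse ESCs, Pcolce (-2.87 ± 0.30) and Plod2 (-2.09 ± 0.39), where 1.18% of all tested genes were lower. Unlike the collagens, Plod2 and Pcolce were close in the mouse lines, with 22.4 and 31.4 FPKM of Plod2 and 62.7 and 66.3 FPKM of Pcolce in F145 and F146. In AdESC lines Plod2 was 4.34 to 8.88 FPKM and Pcolce 5.76 to 9.00 FPKM, below both mouse lines. Serpinh1, at 218 and 27.2 FPKM in F145 and F146 and 43.3 to 106 FPKM in the AdESC lines, did not differ past the threshold (-0.16 ± 0.66, adjusted p = 0.923). Against rat ESCs 6 of 22 assembly genes were higher in AdESCs (Plod1, Crtap, Pcolce, Lox, Loxl2 and Sparc) and Ppib was lower, against 5.79% and 3.91% of all tested genes. Rat against mouse ESCs gave 10 lower and 1 higher (Ppib), against 12.6% and 14.1%. Crtap, part of the prolyl 3-hydroxylation complex, and Lox were listed at 0 in both rat lines. Of 12 measured receptors and proteases 6 were tested. Mmp14, a membrane protease that cleaves type I collagen, was higher in differentiated samples (2.44 ± 0.54), and in testis Itga1, an integrin chain that binds collagen, and Mmp14 were. Mmp2 was higher in AdESCs than in rat ESCs (2.34 ± 0.54), and Ddr2, Mrc2, Mmp2 and Ctsk were lower in rat than in mouse ESCs.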

How the data were processed

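The tables hold FPKM computed by the authors for each gene in each bulk library or single cell. Per the submitters' processing notes FastQC 0.10.1, TopHat2 2.0.10, Cufflinks 2.1.1, mm10 and rn5 were used. The way mouse and rat FPKM were joined is not given in the sources used here. Depth is unknown. Sample titles gave the groups. Cells are not replicates: the FPKM of a sample's cells were averaged, and that mean was the unit of each test. limma 3.58.1 (R 4.3.3, trended prior variance) was run on log2(FPKM + 1) after removing genes whose mean was under 1 FPKM. Benjamini-Hochberg adjustment covered the 8794 bulk or 8421 single-cell genes left, at a threshold of 0.05. All 3 bulk groups shared a fit. Among single-cell samples, the 7 differentiated were set against 4 AdESC samples, and a second fit held each type as its own group. The code was tested on simulated data. A gene counted as present in a cell at 1 FPKM or more.

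The members and lists were chosen with earlier results of these data known, so no count is independent support. Named genes are members past the threshold, the 5 with the highest mean in each class and table, their chain partners, and Col1a1, Col1a2, Col3a1, Col4a1 and Col4a2; the rest are given by range or count. Same-line samples are paired by the design. The deviations of EB and testis samples from their group means correlated with those of the AdESC sample of the same line at -0.0095 to 0.0329 over 8421 genes. Gene models, coordinates and sequences came from GENCODE vM21 of GRCm38. Tables and figures were made with Python 3.11.15, numpy 2.4.6, pandas 2.3.3 and matplotlib 3.10.9. The number of deposited value columns not used was 0. Alternatives were another pseudocount, no filter, upper-quartile scaling, other summaries of cells, a line block and leaving out samples. The sequence of 1 further member is not reported here.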

Additional observations from a re-analysis of the deposited data

Results flagged for a closer look

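Among 32 groups of values checked for an outlying sample, 7 held a sample whose gap to its nearest neighbour exceeded Dixon's 95% critical value for the group. That value assumes independent, normally distributed values, whereas FPKM were used without logs and class sums repeat their members. The 7 flags are therefore descriptions and are not set against a chance rate. In the bulk AdESC lines Col5a1 was 3.86 FPKM in MR1-1, and the nearest other line had 9.16 FPKM. The basement membrane sum over single-cell AdESC samples was 0.934 FPKM in RM1-1 and 0 in the others, so its gap fills the range, and it came from 1 cell. Among the 7 differentiated samples, Col1a2 in testis of RM2-1 (100.4 FPKM, next 40.8 FPKM) and Col11a1 in the same sample (11.8 FPKM, next 5.45 FPKM) stood apart, as did Col3a1 in lung (128 FPKM, next 46.4 FPKM). Col4a1 in EBs of MR2-1 was 415 FPKM with the next sample at 116 FPKM, and the basement membrane sum (415 FPKM, next 116 FPKM) repeats it.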

How the results depend on the processing

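Depth is unknown and limits every low value. Counts of called collagens moved with these settings, whose causes were not tested beyond the fewer samples or other genes each holds. Without a filter the counts were 2 against rat ESCs, 2 for differentiated samples, 0 for EBs and 1 for testis. Rat against mouse ESCs gave 4 when only those groups were fitted. Differentiated samples gave 1 with the median over cells, 2 with the mean of log2 and 2 without 1 EB cell of MR2-1. Testis gave 4 with a pseudocount of 0.1, 0 with upper-quartile scaling, 1 with the median over cells, and 7 without the RM1-1 testis and RM2-1 lung samples. With the replicate block (line) EBs gave 0 and testis 0, with far fewer genes of any kind called than in the main fit, and differentiated samples gave 7. Pairing changed no collagen call of testis against EBs. Leaving out samples in turn gave 0 to 7 (AdESC against mouse), 0 to 5 (AdESC against rat), 4 to 10 (rat against mouse), 1 to 7 (differentiated), 0 to 3 (EBs), 0 to 7 (testis) and 0 to 0 (testis against EBs). By the rule of a log2 difference of 2, the fibroblasts gave 2 with the median over cells, the EBs of MR2-1 gave 1 without the same EB cell, and with a pseudocount of 0.1 the neurons gave 3, the lung cells 10 and bulk over single AdESC cells 14. The rat fibrillar sum was 8.01 FPKM with upper-quartile scaling, and the sum of other collagens in AdESC samples 1.44 FPKM with the median over cells. Under upper-quartile scaling the all-gene median went from -0.11 to 0.20 (AdESC against rat) and from 0.08 to -0.19 (rat against mouse), the calls from 509 higher and 344 lower to 752 and 164, and from 1239 and 1104 to 887 and 1501, with 5 and 7 collagens called as before. Over 31 results on single collagens, 462 values under alternatives comprised 344 on the same side of the threshold, 101 no longer past it, 13 newly past it and 4 reversed. With 1 sample left out, the reversed were Col18a1 against mouse without F146 (-0.43, range to 0.94), Col4a1 against mouse without F145 (0.19, range from -1.23), Col1a1 in testis without RM2-1 (-0.42, range to 6.85) and Col4a1 in testis against EBs without MR2-1 (0.16, range from -4.67). The settings with the 1 EB cell left out, with both doubted samples left out, and of the rule of 2 were chosen after seeing the data.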
